A study of Mus musculus with 6 samples.

Results

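The subunit genes of respiratory complex III, complex IV and ATP synthase (complex V), together with cytochrome c, were examined in splenic T follicular helper (Tfh) cells that lacked Bob1. Members were the genes whose symbol in the authors' table began with Uqcr, with Cox4 to Cox8 followed by a subunit letter or i, or with Atp5, and *Cyc1* and *Cycs*. This gave 45 genes, of which 40 had a mean FPKM (fragments scaled by transcript length and by the total of the library) of at least 1 and were tested among 10229 genes in all. Bob1KO Tfh cells came from FoxP3GFP/DTR CD4Cre/+Bob1fl/fl mice, in which Cre under the *Cd4* promoter element deletes a floxed allele that spans the whole of *Pou2af1*, the gene of the octamer cofactor Bob1. WT Tfh cells came from FoxP3GFP/DTR CD4+/+Bob1fl/fl mice, which carry the same floxed alleles and the same reporter without Cre. Both groups had 3 libraries, and all mice had received 100 ug of NP-CGG in complete Freund's adjuvant 7 days before CD3+CD4+CXCR5+PD-1+GFP- spleen cells were sorted. *Cd4* is active from the thymus onward, so the deletion was not limited to Tfh cells. Per the methods, the mice were littermates matched for age and sex, and the RNA of each group came from separate experiments with several mice each. The labels do not say which library came from which experiment.

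In the inner mitochondrial membrane, complex III passes electrons from ubiquinol to cytochrome c, complex IV passes them from cytochrome c to oxygen, and the proton gradient that both help to build drives the rotary ATP synthase. The catalytic core of complex IV, cytochrome b of complex III and the a and A6L subunits of ATP synthase are encoded by mitochondrial DNA, while all members described here are nuclear genes. T cells increase respiration as well as glycolysis after activation, and memory T cells are known to rely on mitochondrial respiration.

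The genotype labels and the sort were checked first. *Pou2af1* had an FPKM of 1.16, 0.237 and 0.317 in Bob1KO Tfh cells, against 46.1, 32.5 and 34.4 in WT Tfh cells, which gave a log2 fold change of -4.65 with a standard error (SE) of 0.257 (limma adjusted P = 0.00377). All 8 Tfh markers were present, and their summed FPKM was 2102 to 2801 in Bob1KO and 1994 to 2821 in WT libraries. Of 11 myeloid markers, 9 had a mean FPKM of at least 1 and none of the 10 with a value was at 0 in all libraries, and their sum was 82.3 to 4603 in Bob1KO and 541 to 1051 in WT libraries, with the highest sum in Bob1KO replicate 1 and the lowest in Bob1KO replicate 2. Of 8 B cell and plasma cell markers, 4 had a mean FPKM of at least 1, with sums of 29.8 to 70.1 in Bob1KO and 25.8 to 44.9 in WT libraries. Bob1KO replicate 1, the highest library for 10 of 40 members, is therefore the library with the most myeloid RNA. Bob1KO replicate 3, the lowest library for 26 of 40 members, had the next highest myeloid sum, at 1540. The part of those transcripts in the results below was not tested.

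No member passed an adjusted P of 0.05 in limma, where 2 of all 10229 genes (0.0196%) did, *Pou2af1* and *Pcsk1*. Most members nevertheless had slightly lower values in Bob1KO Tfh cells. The log2 fold change was negative for 36 of the 40 tested members, against 50.6% of all tested genes, and its median was -0.19, against 0.00 over all tested genes. At an unadjusted P of 0.05, 4 members were lower (*Atp5d*, *Atp5g1*, *Uqcrq* and *Uqcr10*), where 2.14% of all genes were lower, and *Cycs* alone was higher, where 3.17% of all genes were higher. All 3 Bob1KO libraries lay below all 3 WT libraries for 6 members, where 4.86% of all genes did so, and above them for *Cycs* alone, where 5.86% did. The 6 were *Uqcrq*, *Uqcr10*, *Cyc1*, *Atp5d*, *Atp5g1* and *Atp5a1*. The value of *Atp5d* rested on how its rows were assembled, as described below. Without it, 3 members were lower at an unadjusted P of 0.05 and 5 had all Bob1KO libraries below all WT libraries. Because the libraries are bulk RNA, less RNA per cell and fewer cells that carry it cannot be told apart.

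**Figure D1:**
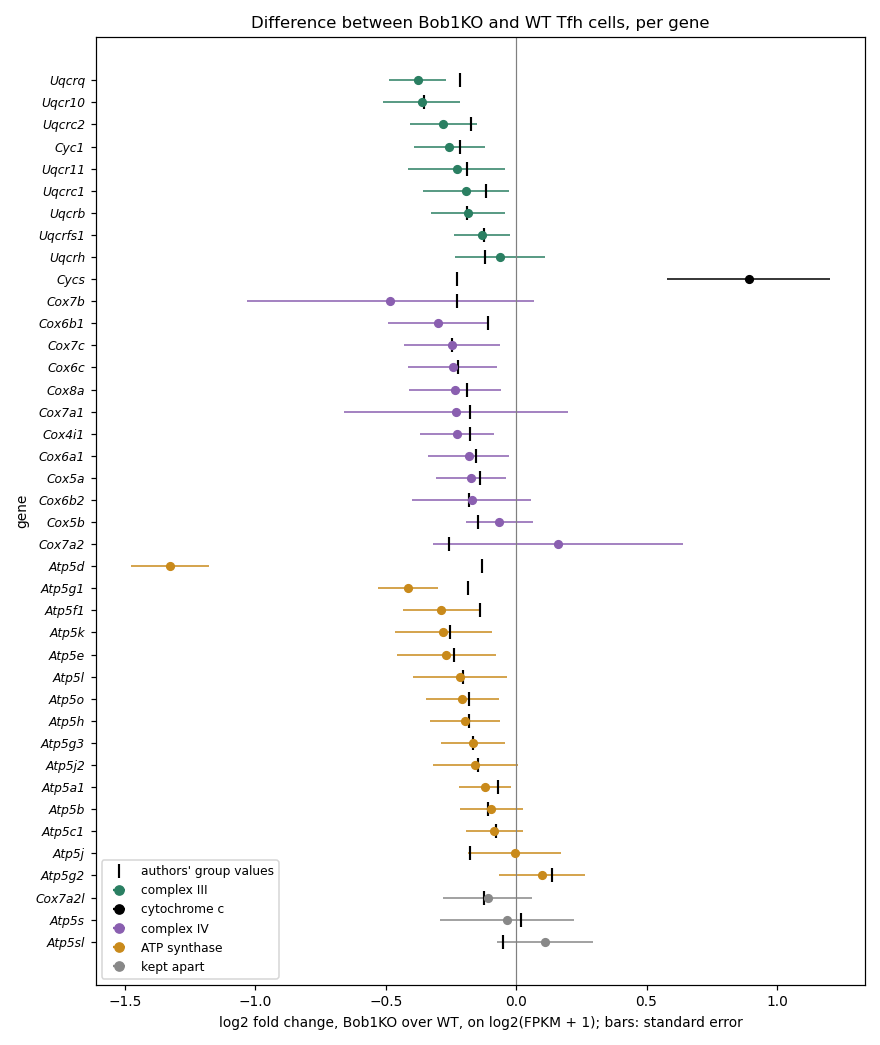
Log2 fold change of Bob1KO over WT Tfh cells for the 40 tested members on the log2(FPKM + 1) scale (horizontal axis), with the standard error as a bar, colored by complex, and the ratio of the authors' group values as a black tick. Points of 36 members lie left of 0, and the ticks depart most from the points at *Cycs*, at 0.89 here, and *Atp5d*, at -1.33 here.

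Promoters are shown for *Atp5g1*, *Uqcr10* and *Cycs*, whose groups did not overlap, and for *Cox6a1*, an abundant complex IV gene that holds most of the motifs searched. Each line gives the 250 bases before the annotated start (RefSeq, GRCm38.p6), 5′ to 3′ on the gene's strand, which is the minus strand for all of them. The spans used for the values of *Atp5g1* and *Cox6a1* reach to 96075670 and 115348981. The 3′ ends of these 2 stretches thus lie inside those spans, the ETS match of *Cox6a1* included. Capitals mark matches on either strand to GCATGCGC (the NRF1 motif), CCGGAAG (an ETS motif, as bound by GABP), CCAAT (bound by NF-Y) or ATTTGCAT (the octamer, to which Bob1 is recruited by Oct factors).
*Atp5g1*, chr11:96075632-96075881: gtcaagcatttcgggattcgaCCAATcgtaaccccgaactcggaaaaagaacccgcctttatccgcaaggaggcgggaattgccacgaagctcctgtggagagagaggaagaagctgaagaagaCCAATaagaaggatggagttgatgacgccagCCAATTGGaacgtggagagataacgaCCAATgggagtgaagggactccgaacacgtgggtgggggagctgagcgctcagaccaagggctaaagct
*Uqcr10*, chr11:4704345-4704594: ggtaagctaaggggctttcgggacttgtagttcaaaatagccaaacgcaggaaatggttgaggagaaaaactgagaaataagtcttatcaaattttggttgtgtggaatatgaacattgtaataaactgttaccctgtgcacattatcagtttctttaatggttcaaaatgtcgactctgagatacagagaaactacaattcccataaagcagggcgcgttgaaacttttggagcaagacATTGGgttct
*Cox6a1*, chr5:115348959-115349208: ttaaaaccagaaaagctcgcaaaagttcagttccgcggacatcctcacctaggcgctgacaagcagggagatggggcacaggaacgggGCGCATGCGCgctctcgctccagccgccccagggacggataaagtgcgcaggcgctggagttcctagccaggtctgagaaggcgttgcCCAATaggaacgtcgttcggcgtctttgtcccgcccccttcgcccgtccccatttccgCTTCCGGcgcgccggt
*Cycs*, chr6:50566570-50566819: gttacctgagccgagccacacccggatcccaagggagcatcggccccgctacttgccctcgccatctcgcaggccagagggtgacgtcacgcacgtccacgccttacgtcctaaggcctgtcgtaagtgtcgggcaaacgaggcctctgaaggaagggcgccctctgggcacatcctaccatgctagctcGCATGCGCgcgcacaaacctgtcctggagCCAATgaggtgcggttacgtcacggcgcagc
In *Cox6a1* the NRF1 motif matches on both strands at overlapping positions, and in *Atp5g1* a pair of CCAAT matches overlaps in the same way. Promoters of 250 bases before to 50 after the start were on hand for 33 of the 40 tested members. The NRF1 motif was found in 7 of these 33 genes (*Atp5g2*, *Atp5k*, *Atp5l*, *Cox6a1*, *Cycs*, *Uqcr11* and *Uqcrc1*) or 21.2%, and in 3.05% of all 27025 genes with a promoter. The ETS motif was found in 10 of 33 or 30.3%, against 9.93% of all genes, and CCAAT in 19 of 33 or 57.6%, against 41.1%. The octamer was found in 0 of 33 members and in 1.97% of all genes. The shares over all genes were not limited to genes that pass the FPKM filter, as the members did, so the 2 sets are unlike. The 7 genes with the NRF1 motif had log2 fold changes of either sign, such as 0.10 for *Atp5g2* and -0.28 for *Atp5k*.

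The genes of complex III (9 members, 9 tested) had negative log2 fold changes throughout, with a median of -0.23 and a range of -0.38 to -0.06. Their summed FPKM was 1738, 1537 and 1378 in Bob1KO Tfh cells, against 1731, 1771 and 2004 in WT Tfh cells. Bob1KO replicate 1 thus lay just above the lowest WT library, and the other Bob1KO libraries were below every WT library. The groups overlapped for 6 of the 9 genes.

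*Uqcrq* (chr11:53427922-53430827), a small subunit next to cytochrome b, had an FPKM of 257, 232 and 217 in Bob1KO Tfh cells, against 297, 314 and 306 in WT Tfh cells. The groups did not overlap, and the log2 fold change was -0.38 (SE 0.108, limma adjusted P = 0.821). With a joint overlap of 0.7 in place of 0.5 between rows and genes, *Uqcrq* was not among the tested genes. *Uqcr10* (chr11:4701973-4704342), another small subunit and the most abundant of the complex, had 312, 264 and 226 in Bob1KO Tfh cells, against 315, 334 and 377 in WT Tfh cells. Here Bob1KO replicate 1 came close to the lowest WT library, and the log2 fold change was -0.36 (SE 0.148, limma adjusted P = 0.930). *Cyc1* (chr15:76343523-76346260) encodes cytochrome c1, which hands electrons to cytochrome c. Its FPKM was 138, 119.6 and 139.6 in Bob1KO Tfh cells, against 149.8, 142 and 185 in WT Tfh cells, with no overlap between groups and a log2 fold change of -0.26 (SE 0.136, limma adjusted P = 0.946).

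The core proteins and the Rieske protein overlapped between groups. *Uqcrc2*, a core protein on the matrix side, had an FPKM of 83.1, 75.8 and 65.3 in Bob1KO Tfh cells, against 92.5, 82.2 and 97.3 in WT Tfh cells, where Bob1KO replicate 1 exceeded WT replicate 2 only. *Uqcrc1*, its partner, had 206, 204 and 216 in Bob1KO Tfh cells, against 226, 198 and 303 in WT Tfh cells, so that the mean of the WT group was set by replicate 3, and without it the log2 fold change was -0.02 instead of -0.19. *Uqcrfs1*, the Rieske iron-sulfur protein that takes the first electron from ubiquinol, had 91.7, 82.0 and 78.3 in Bob1KO Tfh cells, against 87.4, 93.6 and 94.7 in WT Tfh cells. The remaining genes, *Uqcrb*, *Uqcr11* and the hinge protein gene *Uqcrh*, overlapped as well, with log2 fold changes of -0.18, -0.23 and -0.06. In each of these 3 genes Bob1KO replicate 3 was the lowest library and Bob1KO replicate 1 was above at least WT replicate 1.

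*Cycs* (chr6:50562563-50566538), which encodes cytochrome c, the mobile carrier between complexes III and IV that also triggers apoptosis once it leaves mitochondria, ran the other way. Its FPKM was 122, 60.6 and 51.1 in Bob1KO Tfh cells, against 33.4, 37.9 and 45.2 in WT Tfh cells. All Bob1KO libraries were above all WT libraries, with replicate 1 far above the others, and the log2 fold change was 0.89 (SE 0.313, limma adjusted P = 0.922). It was 0.52 without Bob1KO replicate 1. Short additional rows lay inside the gene in WT replicates 1 and 3 alone, and with them added, an alternative chosen after these rows had been seen, the WT values were 42.8, 37.9 and 87.4, the groups overlapped and the log2 fold change was 0.46. The authors' group value, made on an assembly common to all libraries, was 40.9 for Bob1KO and 48.1 for WT Tfh cells, which is the opposite order. Mouse *Cycs* has many processed pseudogenes, and reads shared with these could have been placed differently between libraries, so its direction is uncertain.

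**Figure D2:**
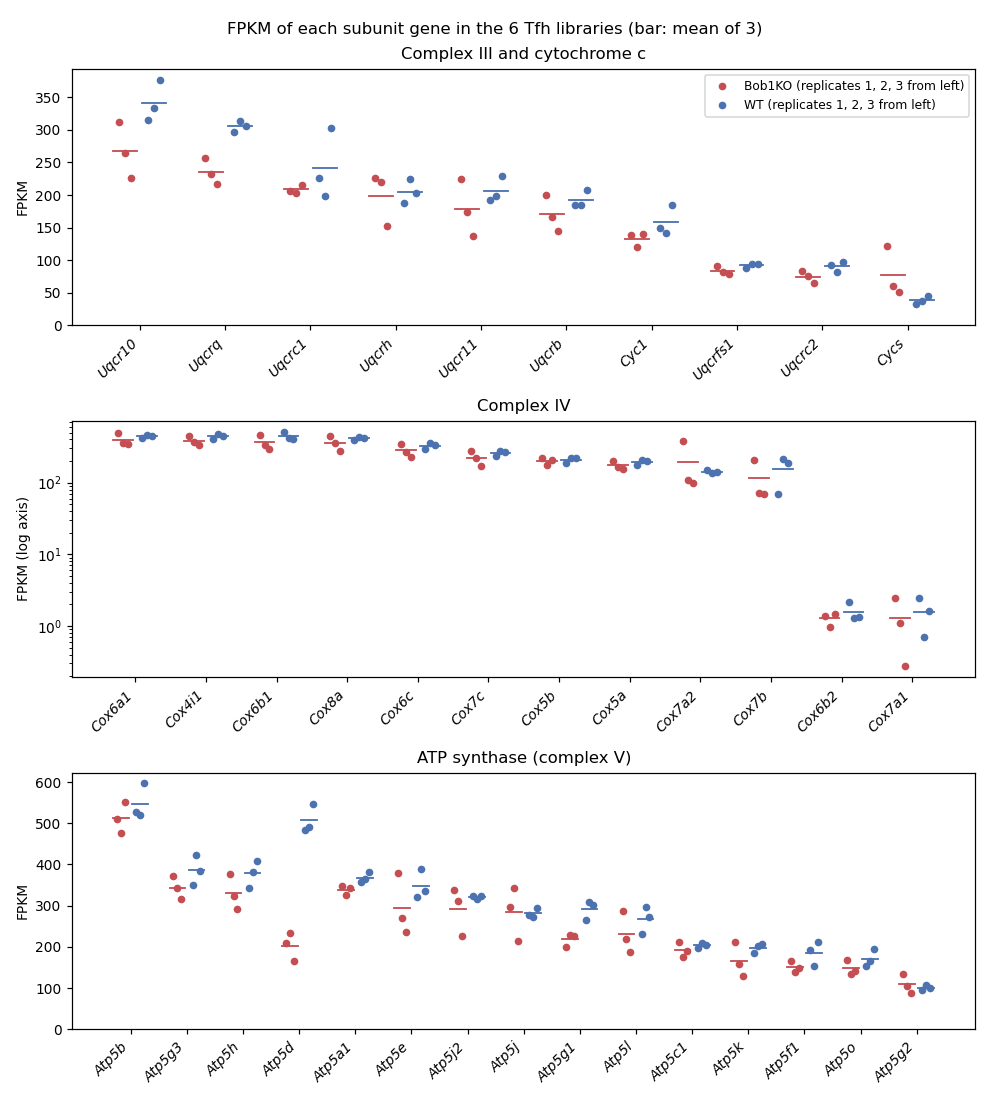
FPKM (vertical axis; logarithmic in the middle panel) of each tested subunit gene and *Cycs* in the 3 Bob1KO libraries and the 3 WT libraries, with a bar at each group mean, ordered by mean level within each complex. Bob1KO points lie mostly at or below WT points, with Bob1KO replicate 1 (leftmost red point) often at the level of the WT libraries, as for *Uqcr10* at 312.

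Complex IV (17 members, 12 tested) had a median log2 fold change of -0.23, with 11 of 12 negative, 0 lower or higher at an unadjusted P of 0.05 in limma, 0 at an adjusted P of 0.05, and overlapping groups in every gene. The summed FPKM was 3472, 2419 and 2189 in Bob1KO Tfh cells, against 2848, 3209 and 3076 in WT Tfh cells, so Bob1KO replicate 1 was the highest library of all and the other Bob1KO libraries were the lowest. *Cox4i1* (chr8:120668222-120674207), a regulatory subunit that binds ATP, had an FPKM of 442, 367 and 330.5 in Bob1KO Tfh cells, against 405, 477 and 445 in WT Tfh cells, a log2 fold change of -0.23 (SE 0.143, limma adjusted P = 0.946). *Cox6b1*, which faces the intermembrane space where cytochrome c docks, had 468, 337 and 295 in Bob1KO Tfh cells, against 505, 421 and 409 in WT Tfh cells, where only Bob1KO replicate 1 was inside the WT range. *Cox6c* had 347, 266 and 231 in Bob1KO Tfh cells, against 296, 358 and 334 in WT Tfh cells.

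*Cox7c* showed the same order, with an FPKM of 277, 221 and 173 in Bob1KO Tfh cells, against 233, 279 and 272 in WT Tfh cells. *Cox6a1*, with the highest mean level of the complex in Bob1KO Tfh cells, had 485, 354 and 346 in Bob1KO Tfh cells, against 421, 456 and 452 in WT Tfh cells. In both genes Bob1KO replicates 2 and 3 were below every WT library and Bob1KO replicate 1 was not. *Cox5a*, which binds a thyroid hormone metabolite in the bovine enzyme, had 202, 163 and 157 in Bob1KO Tfh cells, against 178, 209 and 199.8 in WT Tfh cells, the same order again. *Cox5b*, the zinc-binding subunit, had 219, 174 and 208 in Bob1KO Tfh cells, against 190.0, 217 and 220.0 in WT Tfh cells, a difference of -0.06 that turned to 0.03 without Bob1KO replicate 2.

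Of the complex IV subunits that exist as tissue isoforms, the ubiquitous forms had the high values. *Cox8a* had an FPKM of 442, 356 and 279 in Bob1KO Tfh cells, against 393, 437 and 417 in WT Tfh cells, whereas *Cox8b* and *Cox8c* were listed at 0 in all 6 libraries. *Cox4i2*, the isoform of lung, did not exceed 0.0842, *Cox7b2* did not exceed 0.134, and *Cox6a2* of heart and skeletal muscle was listed at 0 throughout. These 5 genes were not tested, and a value of 0 in these files is not proof of absence, since *Ttc19*, a widely expressed factor of complex III, was also listed at 0 in all 6 libraries. *Cox6b2* of testis had 1.37, 0.983 and 1.49 in Bob1KO Tfh cells, against 2.14, 1.27 and 1.34 in WT Tfh cells, and *Cox7a1* of heart and muscle had 2.497, 1.09 and 0.280 in Bob1KO Tfh cells, against 2.42, 0.691 and 1.61 in WT Tfh cells. At these levels the spread within each group exceeded the difference between them.

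*Cox7b* and *Cox7a2* varied widely within a group. *Cox7b* had an FPKM of 207, 70.6 and 69.7 in Bob1KO Tfh cells, against 70.2, 215 and 185 in WT Tfh cells, so that both groups contained a level near 70 and a level near 200, and the log2 fold change of -0.48 had a standard error of 0.549. These values did not change with the choice of rows, since each library held 1 row for *Cox7b*, but that row was assembled with unlike spans. It spanned 9984, 10099 and 9962 bases in Bob1KO replicates 1 and 3 and WT replicate 2, and 6751 bases in the others. The authors' group value was 79.1 for Bob1KO and 92.6 for WT Tfh cells. The part of the assembly in these levels was not tested. *Cox7a2* had 378, 109 and 98.7 in Bob1KO Tfh cells, against 152, 136 and 140.0 in WT Tfh cells. In Bob1KO replicate 1, 290.5 of the 378 came from a shorter row at the same locus, which held 39.4 to 53.6 in the other libraries. On the row of best overlap alone, *Cox7a2* had 87.7, 69.1 and 58.2 in Bob1KO Tfh cells, against 109, 87.6 and 86.3 in WT Tfh cells, and its log2 fold change changed from 0.16 to -0.40. *Cox7a2l*, a factor of supercomplexes of complexes III and IV that was kept apart, had 69.4, 65.6 and 55.8 in Bob1KO Tfh cells, against 53.9, 76.4 and 77.5 in WT Tfh cells, with overlapping groups.

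ATP synthase (15 members, 15 tested) had a median log2 fold change of -0.20, with 14 of 15 negative. Without *Atp5d*, for reasons given next, the median of 14 genes was -0.18, and the summed FPKM was 4000.1, 3555 and 3287 in Bob1KO Tfh cells, against 3812, 4109 and 4216 in WT Tfh cells. Bob1KO replicate 1 again lay within the WT range and the other Bob1KO libraries below it.

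*Atp5d* (chr10:80142315-80145818), the delta subunit of the central stalk, had the largest negative fold change of the members, and this value rested on how its rows were assembled. Summed by the rule, its FPKM was 209, 234 and 166 in Bob1KO Tfh cells, against 483, 491 and 546 in WT Tfh cells, a log2 fold change of -1.33 (SE 0.150, limma adjusted P = 0.0931). Each library held a full-length row of 3504 bases and a second, partial row. The partial row spanned 1828 bases in every WT library and was summed into the gene, at 290.1, 299 and 321, whereas it spanned 594 bases in every Bob1KO library, at 223, 184 and 177, and fell short of the overlap needed. On the full-length row alone the values were 209, 234 and 166 in Bob1KO Tfh cells, against 193, 192 and 225 in WT Tfh cells, with overlapping groups and a log2 fold change of -0.01 (SE 0.152). With every row inside the gene added, they were 433, 417 and 343 in Bob1KO Tfh cells, against 483, 491 and 546 in WT Tfh cells, a log2 fold change of -0.35 (SE 0.135, limma adjusted P = 0.939). These 2 alternatives were chosen after the rows had been seen. Of the planned ones, the row of highest FPKM alone gave 209, 234 and 166 in Bob1KO Tfh cells, against 290.1, 299 and 321 in WT Tfh cells, without overlap and with a log2 fold change of -0.59 (SE 0.146, limma adjusted P = 0.588), and an overlap of 0.7 left the full-length row alone, with -0.01. The authors' group value was 211 for Bob1KO and 232 for WT Tfh cells.

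**Figure D3:**
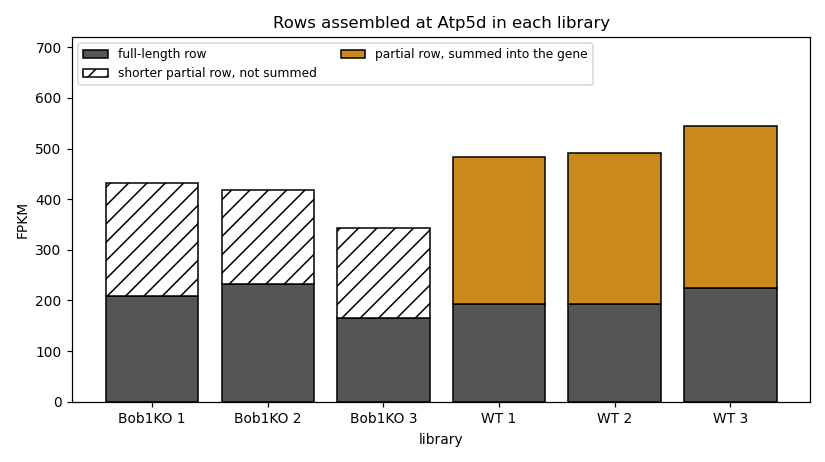
FPKM (vertical axis) of the rows assembled at *Atp5d* in each Bob1KO and WT library, stacked as the full-length row, the partial row summed into the gene and the shorter partial row that was not summed. The full-length rows overlap between groups (166 to 234 in Bob1KO and 192 to 225 in WT libraries), and only WT libraries hold the longer partial row.

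The genes of the alpha, beta and gamma subunits of ATP synthase differed little, while *Atp5e* had a larger difference with a wide standard error. *Atp5b*, the catalytic beta subunit and the most abundant member, had an FPKM of 511, 475 and 552 in Bob1KO Tfh cells, against 527, 519 and 597 in WT Tfh cells, with a log2 fold change of -0.10 (SE 0.120). *Atp5a1*, the alpha subunit, had 347, 326 and 342 in Bob1KO Tfh cells, against 357, 365 and 381 in WT Tfh cells, and its groups did not overlap, although the log2 fold change was only -0.12 (SE 0.0990, limma adjusted P = 0.946). With rows inside the gene added, *Atp5a1* had 347, 407 and 413 in Bob1KO Tfh cells, against 357, 365 and 447 in WT Tfh cells, and the groups overlapped. *Atp5c1*, the gamma subunit that rotates within the head, had 213, 175 and 189.6 in Bob1KO Tfh cells, against 197, 209 and 204 in WT Tfh cells. *Atp5e*, the epsilon subunit of the same stalk, had 379, 269 and 235 in Bob1KO Tfh cells, against 320.4, 388 and 337 in WT Tfh cells, where Bob1KO replicate 1 lay among the WT libraries and the others below them. The log2 fold change of *Atp5e* was -0.27 (SE 0.191).

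The membrane rotor of ATP synthase is a ring of identical c subunits, whose mature protein is encoded by *Atp5g1*, *Atp5g2* and *Atp5g3*. *Atp5g1* (chr11:96068852-96075670) had an FPKM of 199, 229 and 226 in Bob1KO Tfh cells, against 264, 308 and 301 in WT Tfh cells. Every Bob1KO library was under the WT range, with replicate 1 the lowest, and the log2 fold change was -0.41 (SE 0.116, limma adjusted P = 0.804). *Atp5g3* had 371, 344 and 315 in Bob1KO Tfh cells, against 349.8, 422 and 385 in WT Tfh cells, and *Atp5g2* had 134, 106 and 87.3 in Bob1KO Tfh cells, against 94.2, 108 and 99.2 in WT Tfh cells. The 3 genes together gave 705, 679 and 628 in Bob1KO Tfh cells, against 708, 838 and 785 in WT Tfh cells. *Atp5g1* made up 28.3%, 33.8% and 35.9% of that sum in Bob1KO Tfh cells, against 37.3%, 36.8% and 38.3% in WT Tfh cells, so its share was lower in all Bob1KO libraries. The share of *Atp5g2* was 19.0%, 15.6% and 13.9% in Bob1KO Tfh cells, against 13.3%, 12.9% and 12.6% in WT Tfh cells, and was higher in all of them. An exact permutation test over 3 against 3 libraries cannot go below 0.1, and since these shares were computed after the gene values had been seen, no test was made.

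Among the stator and membrane subunits, *Atp5f1*, subunit b of the peripheral stalk, had an FPKM of 167, 138 and 148 in Bob1KO Tfh cells, against 191, 154 and 211 in WT Tfh cells, a log2 fold change of -0.29 (SE 0.146). *Atp5k*, the small subunit e that shapes dimers of the enzyme, had 212, 157 and 129 in Bob1KO Tfh cells, against 185, 201 and 206 in WT Tfh cells. Bob1KO replicate 1 was the highest library for *Atp5k* and lay inside the WT range for *Atp5f1*. *Atp5h*, *Atp5o*, *Atp5l*, *Atp5j2* and *Atp5j* had log2 fold changes of -0.20, -0.21, -0.22, -0.16 and -0.01, all with overlapping groups, and that of *Atp5j* was 0.05 with quantile normalization. *Atp5j* and *Gabpa*, which start head to head, and *Atp5f1* and *Wdr77* overlap in the annotation, and since the kit does not mark the strand, reads of their shared stretches cannot be told apart. *Atp5s* and *Atp5sl*, which carry the older symbol but are no subunits, had log2 fold changes of -0.03 and 0.11.

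Differences between libraries of the same group were as large as those between groups. The median deviation of the members from their mean over the 6 libraries, on the log2 scale, was 0.11, -0.15 and -0.28 in Bob1KO Tfh cells, against 0.00, 0.09 and 0.15 in WT Tfh cells. Bob1KO replicate 3 was the lowest of all libraries for 26 of 40 members and Bob1KO replicate 1 for 1 member, while the highest library was WT replicate 3 for 16, WT replicate 2 for 10 and Bob1KO replicate 1 for 10 members. In all 3 complexes the lowest median was in Bob1KO replicate 3, followed by Bob1KO replicate 2 and WT replicate 1. Between the highest and the lowest library the FPKM differed by a median factor of 1.49 in complex III, 1.60 in complex IV and 1.52 in ATP synthase. A factor above 2 was seen for *Cox7b*, *Cox6b2*, *Cox7a1*, *Cox7a2* and *Atp5d*, and outside the complexes for *Cycs* (3.64) and *Atp5s* (2.22).

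**Figure D4:**
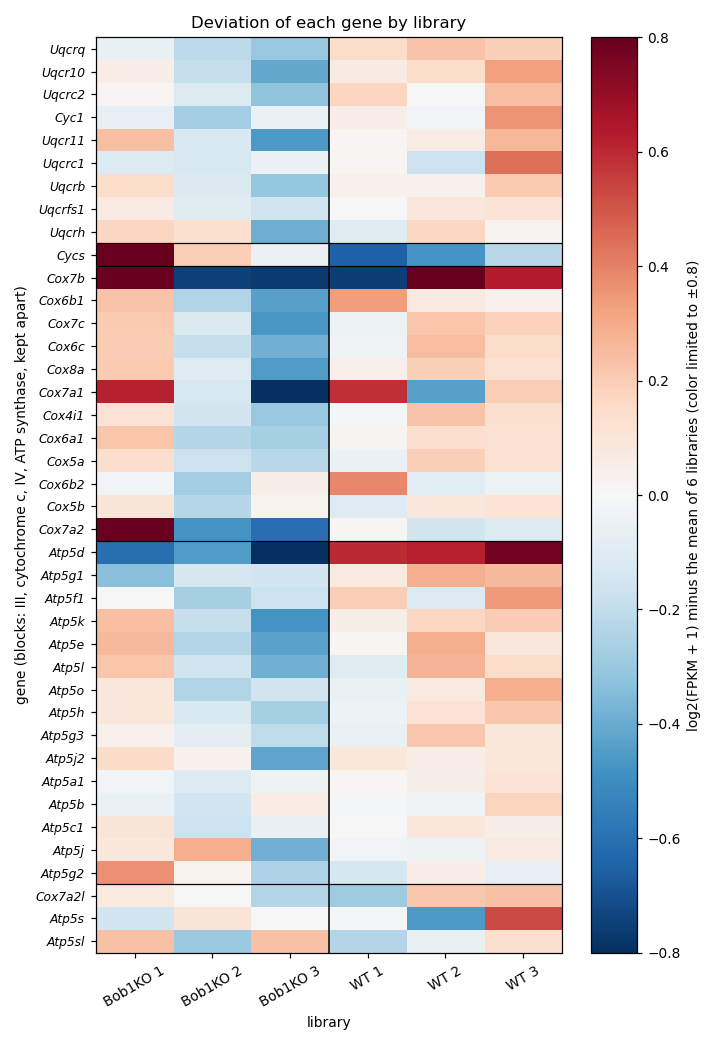
Deviation of log2(FPKM + 1) from the mean of the 6 libraries (color, limited to 0.8 either way) for each tested member (rows, in blocks by complex) in the Bob1KO libraries and the WT libraries (columns). Bob1KO replicates 2 and 3 are mostly blue, with medians of -0.15 and -0.28. Bob1KO replicate 1 and WT replicates 2 and 3 are mostly red, with medians of 0.11, 0.09 and 0.15, and WT replicate 1 lies near 0.

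Deviations of libraries with the same replicate number correlated weakly, at 0.12 to 0.15, as described under the processing. The members were therefore also compared within each number, although their own medians did not follow it. Replicate 1 had the highest median among Bob1KO libraries (0.11) and the lowest among WT libraries (0.00). Replicate 3 had the lowest among Bob1KO libraries (-0.28) and the highest among WT libraries (0.15). In the pair of replicate 1, only 13 of 40 members were lower in Bob1KO Tfh cells, where 47.5% of all genes were lower. In the pairs of replicates 2 and 3, 35 and 37 of 40 members were lower, where 46.5% and 54.7% of all genes were. The median difference over members was 0.12, -0.25 and -0.48 in the 3 pairs, against 0.01, 0.02 and -0.04 over all genes. In all 3 pairs, 10 of 40 members or 25.0% were lower (*Uqcrq*, *Uqcr10*, *Uqcrc2*, *Cyc1*, *Cox6b1*, *Atp5a1*, *Atp5b*, *Atp5d*, *Atp5f1* and *Atp5g1*), where 13.4% of all genes were. For *Atp5d* this rested on the summed rows. On its full-length row Bob1KO was higher in replicates 1 (209 against 193) and 2 (234 against 192). With rows inside the gene added, *Atp5a1* was higher in Bob1KO replicate 2 (407 against 365). With the replicate number as a block in limma, 0 members were called, *Atp5d* had an adjusted P of 0.271, and 1 gene in all was called, *Pou2af1*.

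The counts above depended on Bob1KO replicate 1. Without it, 15 of 40 members were lower at an unadjusted P of 0.05 instead of 4, where 2.70% of all genes were lower in that fit, and 27 members had all Bob1KO libraries below all WT libraries, where 11.6% of all genes did. Without WT replicate 1, the library in which members were lowest among WT libraries, 11 members had all Bob1KO libraries below all WT libraries, where 10.4% of all genes did. The median log2 fold change without 1 library ranged from -0.33 to -0.14 in complex III, from -0.40 to -0.10 in complex IV and from -0.29 to -0.11 in ATP synthase, and no member was called at an adjusted P of 0.05 in any of these 6 fits.

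Member transcripts are short, and short transcripts as a whole varied between libraries. Among all tested genes with transcripts of up to 500 bases, the median deviation was 0.15, -0.07 and -0.41 in Bob1KO Tfh cells, against -0.13, 0.21 and 0.06 in WT Tfh cells, the same low library as for the members. For genes between 500 and 1000 bases, which include 20 of the 40 members, the median log2 fold change was -0.10 over 608 genes and -0.18 over the members, and 69.4% of the 608 genes were negative, as were 18 of the 20 members. For genes between 1000 and 2000 bases it was -0.06 over 2205 genes, of which 65.9% were negative, and -0.19 over 11 members, of which 11 were negative. Genes over 4000 bases had a median of 0.08 with 34.5% negative. The part of transcript length in the members' difference was not tested.

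**Figure D5:**
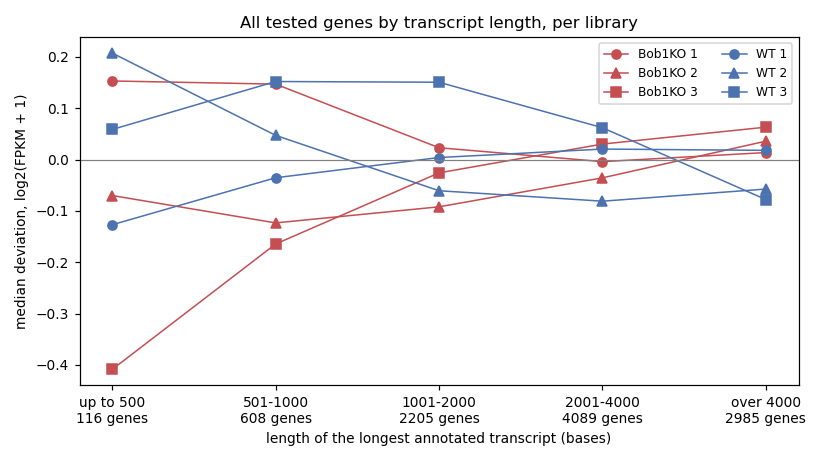
Median deviation of log2(FPKM + 1) from the mean of the 6 libraries (vertical axis) over all tested genes in 5 bins of transcript length (horizontal axis, in bases) for each Bob1KO library (red) and each WT library (blue). The libraries lie close together at long transcripts and spread apart at short ones, from -0.41 in Bob1KO replicate 3 to 0.21 in WT replicate 2 in the shortest bin.

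The authors' table holds a value per group made on an assembly common to all libraries, without a value per library. In it, 38 of the 40 members were lower in Bob1KO than in WT Tfh cells, where 5088 of all 10229 tested genes were lower. The 38 members included 9 of 9 genes of complex III, 12 of 12 of complex IV and 14 of 15 of ATP synthase, and the exceptions were *Atp5g2* and *Atp5s*. The median log2 ratio was -0.18 over members and 0.00 over all tested genes. These values come from the same libraries and are not independent of the values above.

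Genes around the members were counted from lists chosen with earlier results of these data known, and 0 of them passed an adjusted P of 0.05 in limma. The carriers that import phosphate and ADP and export ATP had the lowest median. *Slc25a5*, an adenine nucleotide carrier, had an FPKM of 438, 398 and 418 in Bob1KO Tfh cells, against 489, 504 and 588 in WT Tfh cells, with a log2 fold change of -0.33 (SE 0.119, limma adjusted P = 0.922). *Slc25a4*, its muscle and heart form, had 101, 99.9 and 98.7 in Bob1KO Tfh cells, against 140.3, 109.7 and 129 in WT Tfh cells, and *Slc25a3*, the phosphate carrier, had 238, 267 and 145 in Bob1KO Tfh cells, against 280.4, 278 and 306 in WT Tfh cells. All 3 carriers had every Bob1KO library below every WT library, replicate 1 included, where 4.86% of all genes did, and 2 of the 3 were lower at an unadjusted P of 0.05, where 2.14% of all genes were.

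Assembly factors showed smaller medians than the subunits. Of 6 listed factors of complex III, 5 were tested with 3 negative and a median of -0.05. Of 26 genes listed under complex IV assembly, 23 were tested with 16 negative and a median of -0.10, and the groups overlapped in every gene. That list included *Ndufa4*, a subunit of complex IV rather than an assembly factor, with a log2 fold change of -0.12. Of 6 listed genes of ATP synthase assembly and regulation, all were tested, with 4 negative and a median of -0.07. *Usmg5*, a small protein of ATP synthase dimers, had an FPKM of 332, 307 and 231 in Bob1KO Tfh cells, against 363, 392 and 347 in WT Tfh cells, without overlap and with a log2 fold change of -0.36 (SE 0.157, limma adjusted P = 0.931).

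Transcription factors known to drive respiratory genes differed little, with 8 of 11 tested negative and a median of -0.07. *Nrf1*, whose motif was counted above, had an FPKM of 23.3, 30.8 and 28.4 in Bob1KO Tfh cells, against 32.9, 26.5 and 35.6 in WT Tfh cells, with overlapping groups. *Gabpa*, the ETS subunit of GABP, had 9.10, 9.52 and 11.4 in Bob1KO Tfh cells, against 10.2, 10.6 and 10.1 in WT Tfh cells. The coactivators *Ppargc1b* and *Pprc1* were the only ones without overlap, in opposite directions, at 5.36, 5.55 and 4.79 in Bob1KO against 6.20, 5.73 and 5.94 in WT Tfh cells for *Ppargc1b*, and at 9.09, 10.2 and 10.3 in Bob1KO against 8.37, 7.34 and 8.24 in WT Tfh cells for *Pprc1*. Over all tested genes, 4.86% had every Bob1KO library below every WT library and 5.86% had every one above. *Ppargc1a*, the coactivator best known from muscle and brown fat, did not exceed 0.109 and was not tested.

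Complex I, which feeds electrons into complex III through ubiquinol, had a median log2 fold change of -0.20 with 32 of 34 tested subunit genes negative, close to that of the members. Complex II, which does the same from succinate, had a median of -0.01 with 2 of 4 negative. The difference between these complexes was not tested. Mitochondrial DNA gave rows for the whole genome only, 2 in every Bob1KO library and 1 in every WT library. Their summed FPKM was 377, 299 and 251 in Bob1KO Tfh cells, against 283, 343 and 215 in WT Tfh cells. The groups overlapped, but these sums rest on unlike numbers of rows and are not comparable levels. No value could be given for the mitochondrially encoded subunits.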

How the data were processed

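RNA of sorted Tfh cells (0.7 ng per library) was made into SMART-Seq v4 cDNA and sequenced. Per the sources, the authors used cutadapt 1.2.1, PRINSEQ, TopHat2 2.0.13 and Cufflinks 2.2.1 on mm10. The authors deposited FPKM per assembled row and library, and a table of group FPKM, fold changes and P-values, of which only names and group FPKM were used here. The files hold no read counts, so depth is unknown beyond the step size of low values, which put the libraries at 0.874 to 1.27 times Bob1KO replicate 1, a step shared by 5.70 to 15.2% of the genes compared. Rows without a gene name held 94.1 to 95.9% of FPKM. Rows were therefore assigned to genes by position (GENCODE M21 transcripts, otherwise RefSeq; joint overlap of at least 0.5) and summed per gene, which assigned 90.5 to 91.4% of FPKM. Those that averaged an FPKM of 1 or more were tested on log2(FPKM + 1) with limma 3.58.1 (R 4.3.3, trend, two-sided, Benjamini-Hochberg over all 10229 genes), which was tested on simulated data: of 200 genes changed 2-fold, 45.5% were recovered with 12 false calls, and of 200 changed 4-fold, 91.0% with 5. The simulated errors were drawn separately for each gene, so shifts shared by many genes of a library were not simulated, and neither were smaller changes. A fold change on this scale understates that of low genes.

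The members, lists and tests were chosen with earlier results of these data known. Genes named were, per complex, the 4 members of smallest P, the 2 most abundant, those without overlap, the catalytic and electron-carrying subunits, the c subunit genes and the isoform pairs. Replicate numbers come from the sample titles, and the deviations of same-numbered libraries from their group means correlated at 0.14, 0.15 and 0.12, so the numbers were taken to pair the libraries. The alternatives were other pseudocounts, filters, scalings, overlaps and rows, a replicate block and leaving out libraries. Older symbols of 16 listed genes were matched through RefSeq. *Cox4nb*, whose letter marks no subunit, was left out. Many members have processed pseudogenes, and the sources used here do not give how such reads were shared.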

Additional observations from a re-analysis of the deposited data

How the results depend on the processing

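In every alternative run, 0 members were called at an adjusted P of 0.05 in limma, and the medians of complexes III and IV and of ATP synthase stayed negative. With quantile normalization these medians were closer to zero, at -0.20, -0.17 and -0.12, against -0.23, -0.23 and -0.20 in the main fit. The count of all genes called, 2, was 1 with a mean FPKM of at least 5 and with a pseudocount of 0.1, and 1 to 8 without 1 library. With the replicate block it was also 1, and the block changed no other call. Members lower at an unadjusted P of 0.05 in limma numbered 4, where 2.14% of all genes were lower. They numbered 2 with an overlap of 0.7 (2.10% of all genes) and 6 with scaling by the median ratio (2.54%). There was 1 without both replicate 2 libraries (2.28%). Without 1 library they numbered 3 to 15, where 1.35 to 2.70% of all genes were lower. The run with an overlap of 0.7 tested 39 members, without *Uqcrq*, so its complex III median of -0.21 covers 8 genes. Without both replicate 2 libraries, *Pou2af1* was at -4.60 with an adjusted P of 0.0944, against 0.004 to 0.043 without 1 library. Signs of members turned for *Atp5j* (0.0472) with quantile normalization, for *Cox7a2* (-0.40) on the row of best overlap alone, for *Atp5a1* (0.0009) with rows inside the gene added, and for *Atp5c1* (0.0014), *Cox5b* (0.0628) and *Cox7b* (0.0746) without both replicate 2 libraries. Without 1 library the log2 fold change of *Cox7a2* ranged from -0.46 to 0.50, of *Atp5g2* from -0.0603 to 0.2468, of *Cox5b* from -0.1322 to 0.0333, of *Cox7a1* from -0.60 to 0.13, of *Uqcrh* from -0.1621 to 0.1192, of *Atp5j* from -0.1533 to 0.1851, of *Atp5j2* from -0.2717 to 0.0163 and of *Atp5s* from -0.2731 to 0.2209. The cause was not tested, apart from *Cox7a2* and *Atp5a1*, where the rows added or left out set the value. Rows were assembled separately in each library, which bears on all genes, as do 3 libraries per group.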

Other observations

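Some genes of the assembly and regulation lists had far lower listed values in some libraries than in others of the same group. Rows were assembled separately in each library and those of the genes below were not examined. A listed 0 is therefore not proof of absence. *Surf1*, an assembly factor of complex IV whose loss causes Leigh syndrome in humans, had an FPKM of 48.4 in Bob1KO replicate 2 and 40.4 in WT replicate 2 and was listed at 0 in the other 4 libraries. *Atpif1*, the inhibitor of ATP synthase hydrolysis, had 113, 88.1 and 72.3 in Bob1KO Tfh cells, against 92.1, 86.7 and 5.57 in WT Tfh cells. *Higd1a*, a hypoxia-induced protein that associates with complex IV, had 126, 91.6 and 26.5 in Bob1KO Tfh cells, against 134, 156 and 45.5 in WT Tfh cells.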
